A study of Mus musculus with 37 samples.

Results

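Transcripts of motile cilia were examined in cortical astrocyte preparations as a group of 46 genes, chosen by symbol: the master regulator of motile ciliogenesis, Foxj1, and genes of the dynein arms, radial spokes, nexin-dynein links, central pair and doublet microtubules, together with other genes whose products sit in motile cilia. All 46 had a row in both expression tables, out of 21975 rows, and 38 had a mean above 1 TPM (a level per transcript length, scaled to the same total in every library) over the ipsilateral libraries, against 37 contralaterally. Astrocytes had been isolated with ACSA-2 MicroBeads, which bind an astrocyte surface antigen, from the microdissected cortex of male mice at 4 months after surgery, and each library is 1 hemisphere of 1 mouse. All mice were wild type, the labels giving the strain as CD31 and the methods as CD1. Sham mice had a craniectomy and implanted electrodes but no impact. Injured mice had a severe controlled cortical impact (CCI) over the right parietal cortex, and were divided by EEG recording into those with post-traumatic epilepsy (PTE+) and those without (PTE-). There were 5 sham, 10 PTE- and 4 PTE+ ipsilateral libraries, and 5, 9 and 4 contralateral ones. Both hemispheres were present for 17 of the 20 mice, 5 sham, 9 PTE- and 3 PTE+.

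Motile cilia are beating organelles built on a ring of doublet microtubules around a central pair. Outer and inner dynein arms generate the sliding force, radial spokes pass signals from the central pair to the arms, and the nexin-dynein regulatory complex holds neighbouring doublets together. In the brain they are borne in tufts by ependymal cells, the epithelium that lines the ventricles and moves cerebrospinal fluid, and in smaller number by choroid plexus epithelium. Cortical astrocytes usually carry a single immotile primary cilium, which uses the same intraflagellar transport but lacks most of the motile machinery. Foxj1 and factors of the RFX family are the main activators of the motile program, and RFX factors bind a DNA element whose half-site contains GTTGCC.

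Promoters are shown first because the genes were later found to vary together from library to library. Whether any promoter string bears on that variation was not tested. The RFX half-site GTTGCC was the shortest string searched and the commonest over all promoters, so its being the commonest here is no trait of the group. RefSeq promoters on GRCm38.p6, from 250 bases before to 50 after each start, were matched by symbol for 39 of the 46 genes, with 46 promoters in all. The letters GTTGCC, read on both strands, stood in 19 of these 46 promoters (41.3%), against 12.5% of all 32851 promoters. The share was 42.3% among 71 promoters of other motile cilia genes, and 51.9% among 27 promoters of primary cilium and intraflagellar transport genes. The longer string GTTGCCA, which overlaps it, was in 21.7% of the promoters and in 4.38% of all. A pair of facing half-sites 2 bases apart was in 2, those of Ak9 and Pifo (4.35%, against 0.451% of all). The forkhead core TGTTTAC was in 3, those of Ak7, Cfap43 and Mlf1 (6.52%, against 3.65% of all). In all 8 strings were searched, and a match is only a run of letters, not a shown binding site. The 250 bases before the RefSeq start are given for 4 of the genes, with every GTTGCC or its reverse complement in capitals, because 3 of them are among the 10 most abundant of the group and the other, Tekt1, has the half-site in both orientations. They lie at chr9:44240427-44240676 (plus strand, Ccdc153), chr8:116504765-116505014 (plus strand, Dynlrb2), chr4:41507765-41508014 (minus strand, 1110017D15Rik) and chr11:72361883-72362132 (minus strand, Tekt1). All 4 windows are read 5′ to 3′ along the gene.
Ccdc153: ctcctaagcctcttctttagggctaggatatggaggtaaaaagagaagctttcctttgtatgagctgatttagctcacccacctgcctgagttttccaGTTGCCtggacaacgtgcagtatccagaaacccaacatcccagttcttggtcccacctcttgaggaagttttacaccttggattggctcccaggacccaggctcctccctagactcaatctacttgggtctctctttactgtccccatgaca
Dynlrb2: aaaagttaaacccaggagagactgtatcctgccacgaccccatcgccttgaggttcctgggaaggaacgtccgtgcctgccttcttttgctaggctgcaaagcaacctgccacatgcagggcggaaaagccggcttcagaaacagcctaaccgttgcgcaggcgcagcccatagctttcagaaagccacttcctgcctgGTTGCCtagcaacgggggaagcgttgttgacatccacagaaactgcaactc
1110017D15Rik: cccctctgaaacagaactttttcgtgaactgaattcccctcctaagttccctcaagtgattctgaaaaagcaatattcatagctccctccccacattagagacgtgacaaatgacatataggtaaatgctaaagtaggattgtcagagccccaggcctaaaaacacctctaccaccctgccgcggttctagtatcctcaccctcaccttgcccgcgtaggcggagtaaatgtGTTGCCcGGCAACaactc
Tekt1: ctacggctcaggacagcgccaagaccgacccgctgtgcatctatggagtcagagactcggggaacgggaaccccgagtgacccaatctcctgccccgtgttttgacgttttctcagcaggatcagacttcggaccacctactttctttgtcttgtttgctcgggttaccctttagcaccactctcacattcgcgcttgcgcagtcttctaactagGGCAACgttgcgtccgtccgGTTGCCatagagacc
The half-site of Ccdc153 began 152 bases before the start and that of Dynlrb2 51 bases before it. In 1110017D15Rik both copies faced each other with 1 base between them, the first of them 18 bases before the start. In Tekt1 the copies lay 35 and 15 bases before the start.

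The 10 genes with the highest mean level over all 37 libraries were Tppp3, a tubulin polymerization promoting protein (174.3 TPM), the radial spoke gene Rsph9 (118.8 TPM), Ccdc153 of the nexin-dynein regulatory complex (89.8 TPM), the spoke head gene Rsph1 (87.4 TPM), the membrane protein gene Tmem212 (85.3 TPM), the outer arm intermediate chain Dnaic1 (78.6 TPM), the dynein light chain Dynlrb2 (74.9 TPM), Odf3b (65.5 TPM), 1110017D15Rik (53.5 TPM) and Meig1 (23.5 TPM). Foxj1 itself, at chr11:116330704-116335399 on GRCm38, was lower (8.30 TPM). Among the lowest per length were 4 dynein heavy chains, of which Dnah5, Dnah11, Dnah6 and Dnah12 averaged 0.244, 0.353, 0.515 and 0.539 TPM. The central pair genes Hydin (0.436 TPM), Spag17 (0.805 TPM) and Spag6 (0.212 TPM), and Ak9 (0.615 TPM), were also under 1 TPM. Spag6 was listed at 0 in 13 libraries, while its close copy Spag6l, which it resembles in sequence, averaged 10.8 TPM, and how reads were divided between these copies is uncertain.

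The spread between libraries was wide for most genes and narrow for one. Ccdc153 ran from 0.51 to 292.58 TPM over the 37 libraries and Odf3b from 0 to 226.56 TPM. Dnaic1 ran only from 58.24 to 105.07 TPM. Dnaic1 shares 15 exonic bases with Enho, a gene on the opposite strand, in GENCODE vM21, and Enho averaged 676 TPM in the ipsilateral libraries. Since the libraries were not stranded, reads of the shared stretch cannot be assigned. The correlation of Dnaic1 with Enho across libraries was 0.090 ipsilaterally (n = 19) and 0.343 contralaterally (n = 18). Of the 46 genes 14 share exonic bases with another gene, most of all Iqcg with Lrch3 (2965 of 6164 bases) and Mns1 with Tex9 (2842 of 5363 bases), so values of these genes are uncertain.

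**Figure D1:**
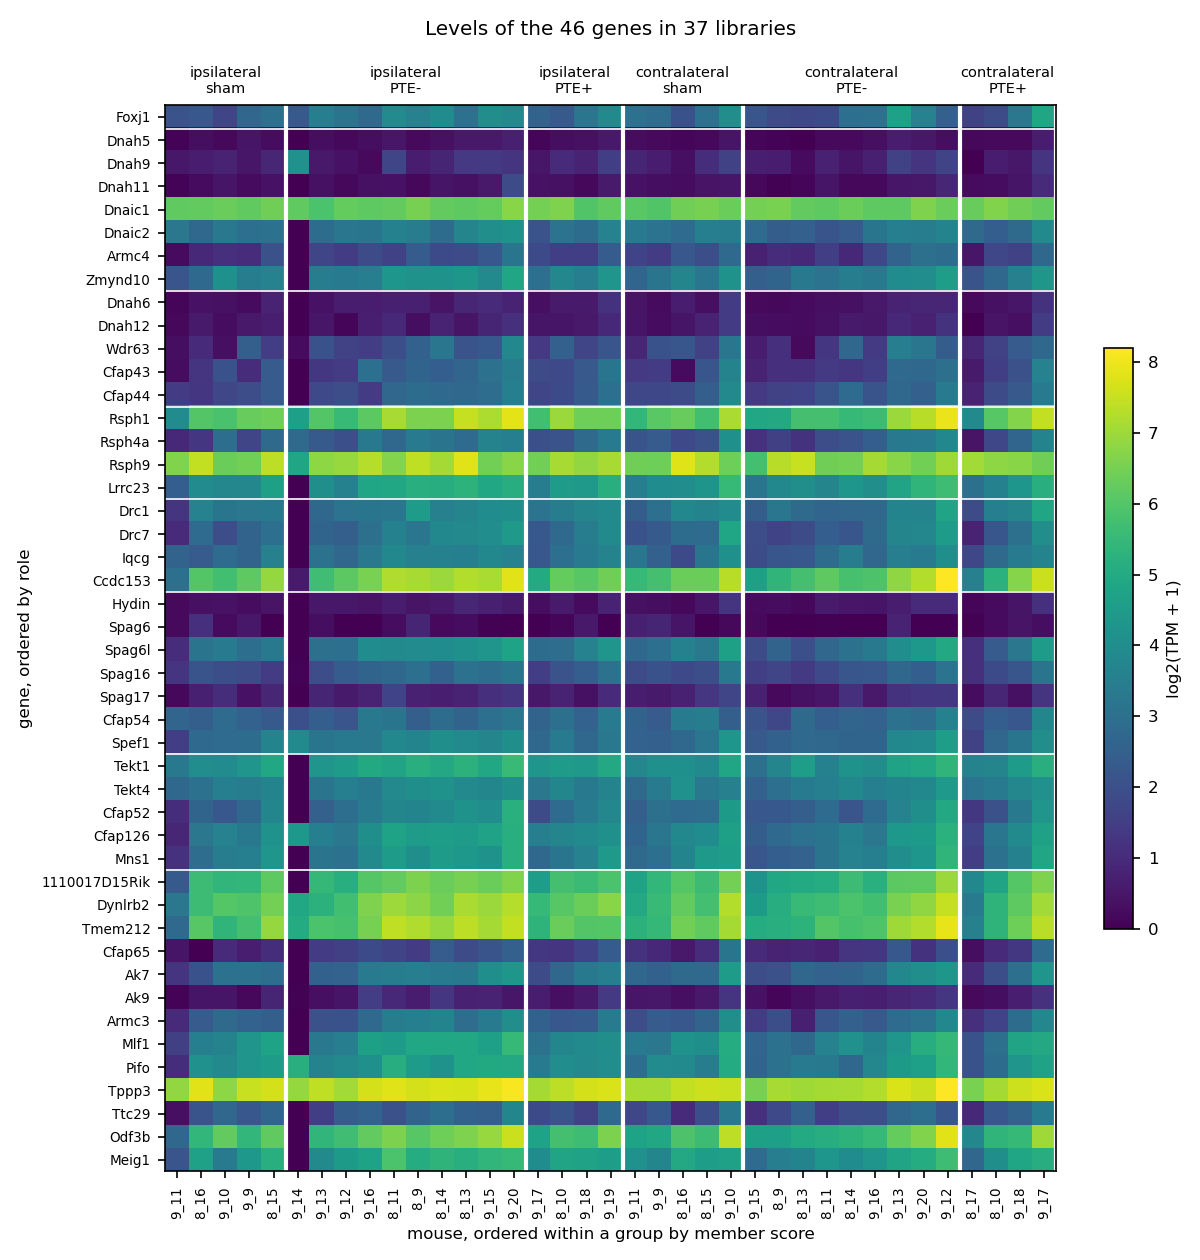
Levels of the 46 genes (rows, ordered by role, white lines between roles) in the 37 libraries (columns, grouped by hemisphere and outcome and ordered within a group by member score), as log2(TPM + 1). Most rows brighten together from left to right within a group, Dnaic1 keeps nearly one shade between 58.24 and 105.07 TPM, and in the ipsilateral library of PTE- mouse 9_14 29 genes are listed at 0.

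A pair of ipsilateral libraries touched most of the results. The library of PTE- mouse 9_14 detected 10727 genes, against 15599 to 18534 in the other 36, and listed 29 of the 46 genes at 0, yet it held the highest level of the heavy chain Dnah9 (16.89 TPM, against a mean of 0.90 in the other 18 ipsilateral libraries), which passed the level filter only through it. The library of sham mouse 9_11 detected 16876 genes and had low levels of most of the genes. Astrocyte markers were high in every library, with Slc1a3 at 1420.19 TPM or more, Gja1 at 1410.23 TPM or more and Gfap between 116.70 and 1064.92 TPM. Of the 6 ependymal genes outside the axoneme Rarres2 was at 164.25 TPM or more and Ezr at 214.68 TPM or more, while Cd24a and Krt15 were each listed at 0 in 1 library. Of the 12 choroid plexus markers Ttr was listed at 0 in 12 libraries, with a median of 0.09 and a highest level of 770.93 TPM, and Folr1 and Kcnj13 had medians of 9.15 and 4.66 TPM. Means and scores below include both libraries, and the counts, medians and fold changes of the ipsilateral injury comparison are also given without them.

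A member score was taken as the mean log2(TPM + 1) of the 38 genes above 1 TPM over both tables. It ran from 1.53 to 4.90 on the log2 scale, and the summed level of the 46 genes from 400 to 2415 TPM. Within the ipsilateral sham group the scores were 4.00, 3.38, 3.48, 2.10 and 3.54 for mice 8_15, 8_16, 9_10, 9_11 and 9_9. The 4 ipsilateral PTE+ libraries lay between 3.23 and 4.29, and the 10 PTE- libraries had a lowest score of 1.53, a median of 4.33 and a highest of 4.90. Contralaterally the 5 sham libraries lay between 3.20 and 4.71, the PTE- libraries had a lowest of 2.71, a median of 3.50 and a highest of 4.88, and the PTE+ libraries lay between 2.28 and 4.72. All 6 groups overlapped. In bulk samples fewer ciliated cells and less ciliary RNA per cell cannot be told apart.

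**Figure D2:**
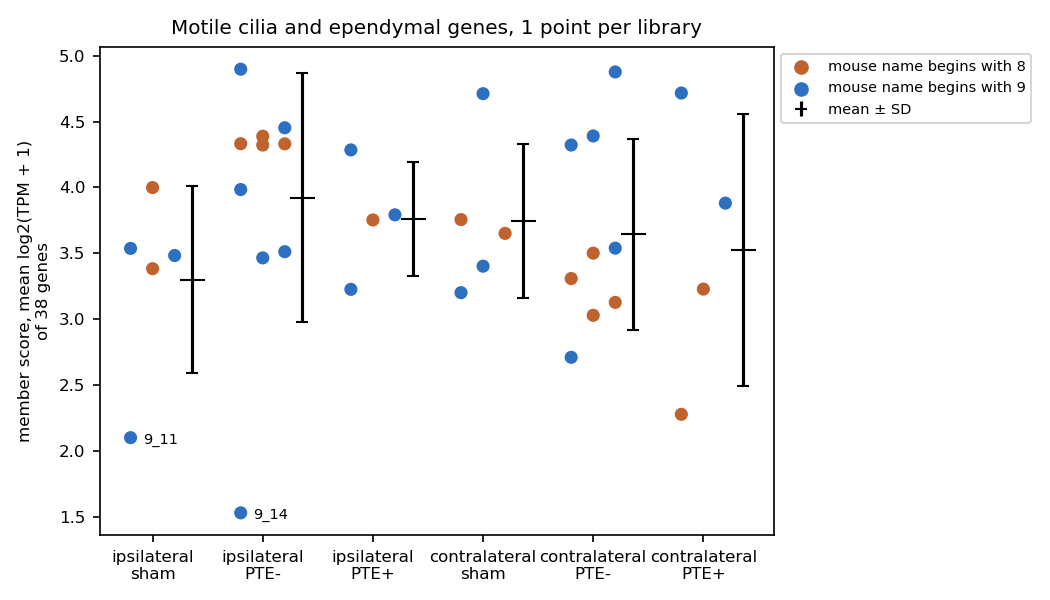
Member score of each library (points, mean log2(TPM + 1) of 38 genes) by hemisphere and outcome, with the mean ± SD of each group beside it and colour by the first digit of the mouse name. The scores of all groups overlap, and mice 9_14 (1.53) and 9_11 (2.10) lie lowest in the ipsilateral table.

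The first comparison asked how these genes differed between injured and sham mice in the injured hemisphere. In the ipsilateral cortex 8 of the 38 genes tested were higher in the 14 injured than in the 5 sham mice at the p and fold thresholds of the study (p under 0.05 without adjustment, change of 1.2-fold or more), and none was lower. The 8 were Foxj1, the outer arm docking gene Armc4, the inner arm gene Wdr63, the spoke head gene Rsph4a, Spef1 of the central pair, Cfap126 of the doublets, Tmem212 and Cfap65. The study also asked for a mean above 5 TPM in a group, which was replaced here by a mean above 1 TPM over the table. With that filter 5 genes passed, and Armc4, Wdr63 and Cfap65, which averaged under 5 TPM in every ipsilateral group, were not tested. Over all 13265 genes tested 1.23% passed as higher and 1.79% in either direction. None of the 8 passed a Benjamini-Hochberg adjustment over all genes by limma (adjusted p 0.999819 for each), and no gene of all those tested did. In all 261 genes (1.97%) had an unadjusted p under 0.05, a smaller share than that threshold allows when no gene differs. The median log2 fold change of the 38 was 0.58, against -0.02 over all genes tested, and 36 of 38 were higher, Dnaic2 and Rsph9 being the exceptions.

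Foxj1 was measured at 7.12, 3.65, 2.28, 3.28 and 5.54 TPM in the sham mice 8_15, 8_16, 9_10, 9_11 and 9_9. Its PTE- levels ran from 3.93 to 15.64 TPM around a median of 11.1, and its PTE+ levels (8_10, 9_17, 9_18, 9_19) were 3.95, 5.15, 8.29 and 14.18 TPM. The groups overlapped, but 10 of 14 injured mice were above every sham mouse and all 14 above the sham median. Its log2 fold change was 0.98 ± 0.32 (SE), with an unadjusted p of 0.00550 by limma and an exact permutation p of 0.00714 (two-sided). It kept its place above the thresholds in 19 of 20 alternatives, all but the comparison among mice whose names begin with 8.

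Cfap65, a gene needed for sperm flagella, was low, at 1.11, 0.01, 0.97, 0.38 and 0.61 TPM in the same sham mice. The PTE- levels ran from 0 to 4.76 TPM around a median of 2.395, and the PTE+ levels were 1.39, 1.52, 2.14 and 4.18 TPM. All injured mice except mouse 9_14, 13 of 14, exceeded every sham mouse, with a log2 fold change of 1.03 ± 0.30 (SE) and an exact permutation p of 0.00387. Cfap65 shares 287 exonic bases with an opposite gene model, Gm15841.

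Cfap126, which lies along the doublets, was at 17.26, 8.59, 11.35, 0.85 and 8.94 TPM in the sham mice, between 8.43 and 34.64 TPM in the PTE- mice with a median of 21.5, and at 12.13, 10.36, 14.11 and 16.26 TPM in the PTE+ mice. Its log2 fold change of 1.14 ± 0.39 (SE) was the highest of the group, and 7 of 14 injured mice lay above every sham mouse. Without sham mouse 9_11 it no longer passed.

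Among the abundant genes Tmem212 was the one that passed, at 118.87, 66.35, 40.37, 5.93 and 53.84 TPM in the 5 sham mice. Its PTE- levels had a lowest of 32.11, a median of 129.2 and a highest of 173.14 TPM, and the PTE+ levels were 79.2, 39.0, 62.81 and 64.69 TPM. The PTE+ levels thus lay within the sham range, and the log2 fold change of all injured mice was 1.08 ± 0.49 (SE), with an exact permutation p of 0.0584. Spef1, which bundles microtubules, averaged 6.52 ± 3.58 TPM in sham (SD, n = 5) and 10.9 ± 3.42 TPM in injured mice (SD, n = 14), a log2 fold change of 0.76 ± 0.29 (SE). Rsph4a averaged 3.54 ± 2.78 TPM in sham (SD, n = 5) and 6.87 ± 2.92 TPM in injured mice (SD, n = 14), with 6 of 14 injured mice above every sham mouse and a log2 fold change of 0.92 ± 0.35 (SE). The groups overlapped for both.

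The remaining called genes were low. Wdr63, an inner arm gene, was at 1.81, 0.96, 0.27, 0.24 and 4.53 TPM in sham mice and averaged 3.96 ± 3.23 TPM in injured mice (SD, n = 14), with 4 of 14 above every sham mouse, 13 above the sham median and a log2 fold change of 0.96 ± 0.42 (SE). Armc4, a docking gene of the outer arm, was at 3.09, 0.93, 1.17, 0.17 and 1.07 TPM in sham mice and averaged 2.90 ± 1.84 TPM in injured mice (SD, n = 14), with a log2 fold change of 0.74 ± 0.35 (SE) and an exact permutation p of 0.0530. For both, mouse 9_14 lay below every sham mouse.

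By role, the median log2 fold change was 0.38 for 5 outer arm genes, 0.85 for 3 inner arm genes, 0.68 for 4 radial spoke genes, 0.49 for 4 genes of the nexin-dynein complex, 0.70 for 4 central pair genes, 0.58 for 5 doublet genes and 0.52 for the other 12. Without sham mouse 9_11 these medians were 0.11, 0.57, 0.31, 0.11, 0.37, 0.19 and 0.15 in the same order, and without PTE- mouse 9_14 they were 0.44, 1.03, 0.92, 0.83, 0.79, 0.86 and 0.85. Most of the abundant genes did not pass. Tppp3 averaged 166.7 ± 51.9 TPM in sham (SD, n = 5) and 192.2 ± 43.1 TPM in injured mice (SD, n = 14). Dnaic1 averaged 76.2 TPM in sham and 77.8 TPM in injured mice, and Rsph9 120.8 and 122.5 TPM. Ccdc153 averaged 62.4 ± 40.1 TPM in sham (SD, n = 5) and 99.8 ± 58.8 TPM in injured mice (SD, n = 14). Its spread was wide and the groups overlapped, the lowest injured level (0.51 TPM) being that of PTE- mouse 9_14. The same comparison gave 58.6 ± 26.8 and 101.5 ± 56.0 TPM for Rsph1, 47.3 ± 27.9 and 74.0 ± 45.4 TPM for Odf3b, 41.1 ± 24.0 and 60.2 ± 28.9 TPM for 1110017D15Rik, and 18.3 ± 12.3 and 28.6 ± 14.6 TPM for Meig1. Dynlrb2 lay just outside the threshold, with 53.9 ± 29.3 TPM in sham (SD, n = 5) and 89.5 ± 39.9 TPM in injured mice (SD, n = 14) and an unadjusted p of 0.0518 by limma.

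The count depended on single libraries. Without PTE- mouse 9_14, 28 of 37 genes passed as higher (3.49% of all genes did), with a median log2 fold change of 0.86, and all 37 were higher. In its library the called genes Tmem212, Cfap126, Spef1, Rsph4a and Foxj1 were at 32.11, 19.59, 13.76, 6.07 and 3.93 TPM. The called Wdr63 was at 0.17 TPM there, and the called Armc4 and Cfap65 and the uncalled Mns1, Spag6l and Odf3b were at 0. Since 28 passed without it, the 8 cannot be read as set apart from the other genes. Without sham mouse 9_11, only Foxj1 and Cfap65 passed (2.78% of all genes did), with a median of 0.23 and 29 of 38 higher. The log2 fold change without that mouse was 0.91 for Foxj1 and 0.99 for Cfap65, but 0.60 for Cfap126, 0.43 for Tmem212 and 0.45 for Spef1. That of Ccdc153 was -0.04 without sham mouse 9_11 and 1.02 without PTE- mouse 9_14, and that of Odf3b -0.09 and 0.96. Without both, an alternative chosen after seeing the data, 8 of 37 passed (7.28% of all genes did), with a median of 0.44. Rsph4a, Spef1, Cfap126 and Tmem212 were not among them. Without sham mouse 8_16 the count was 5 (1.0% of all genes passed as higher), and without sham mouse 8_15 it was 11 (1.28%). Among mice whose names begin with 8 (5 injured, 2 sham) 8 passed (3.91% of all genes did) and the median was 0.54. Of the genes called with all mice only Wdr63 and Cfap65 were among these 8. Among mice whose names begin with 9 (9 injured, 3 sham) 4 passed (0.943% of all genes did) and the median was 0.64. What the first digit of a mouse name stands for is not given in the labels, and both splits were chosen after seeing the data.

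**Figure D3:**
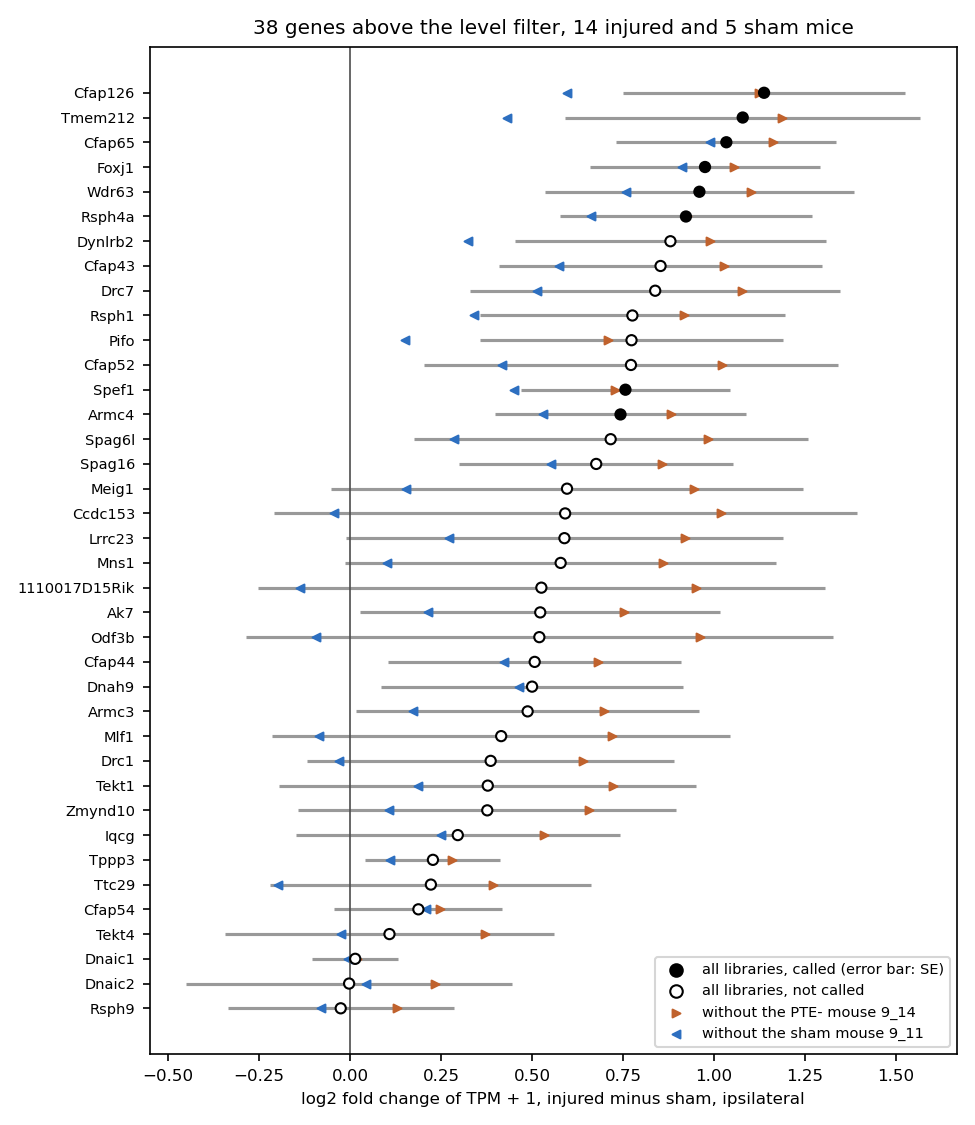
Log2 fold change of TPM + 1, ipsilateral injured minus sham, for the 38 genes tested, with SE bars and filled circles for the 8 that passed the p and fold thresholds. Triangles give the same value without PTE- mouse 9_14 (median 0.86) and without sham mouse 9_11 (median 0.23), which move the genes in opposite directions.

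Other gene lists, drawn up with earlier results of these data known, were read in the same comparison. Of 70 other motile cilia genes 8 passed as higher and 64 had a positive log2 fold change, with a median of 0.45. They were the inner arm light chain Dnali1 (0.86), the tektin Tekt2 (0.66), Enkur (1.04), Cfap69 (0.78), Ccdc146 (0.82), Fam183b (1.03), Rsph3b (0.45) and 1700007K13Rik (0.68), as log2 fold changes. Of 32 primary cilium and intraflagellar transport genes 1, Ift22, passed, with a median of 0.10. Of 7 measured multiciliogenesis regulators none passed (median 0.30), and their inducer genes Mcidas and Gmnc averaged 0.030 and 0.375 TPM over all libraries.

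Markers of other cells were read beside them. The 12 choroid plexus markers summed to between 10.7 and 47.0 TPM in ipsilateral sham libraries and between 16.7 and 865.5 TPM in injured ones. That highest sum was mainly Ttr, whose highest level was 770.93 TPM. Ttr had a median of 0.09 TPM over all libraries and was listed at 0 in 12 of 37. Its log2 fold change was 0.59 ± 1.39 (SE), and it did not pass. Sostdc1 was higher (0.93) among 7 tested. The 6 ependymal genes outside the axoneme summed to between 547.5 and 769.9 TPM in sham and between 537.2 and 1071 TPM in injured libraries. The sums follow mainly Ezr and Rarres2, which averaged 307.0 and 284.7 TPM over all libraries, against 60.62 TPM for Mia, the next. None of the 6 passed. Their log2 fold changes were 0.73 for Cd24a, 0.65 for Krt15, 0.19 for Mia, 0.10 for Rarres2, 0.05 for Ezr and -0.29 for Prom1. Of 10 astrocyte genes, Gfap (1.18) and Aqp4 (0.39) were higher, and of 7 oligodendrocyte genes Mag, Mog and Opalin were lower (-1.53, -1.75 and -1.23). None passed of the 3 neuroblast and dividing progenitor, 6 microglia, 6 neuron, 5 endothelial and 6 meningeal and fibroblast genes that could be tested. The part of these cells in the ciliary values was not tested.

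The second comparison asked whether the genes differed with epilepsy among injured mice, whose libraries are also the injured group of the first and enter the hemisphere comparisons. Ipsilaterally 2 of 38 genes passed, both lower in PTE+ than in PTE- mice, where 0.196% of all genes passed as lower and 0.565% in either direction. The median log2 fold change of the 38 was -0.13, against 0.13 over all genes, and 10 of 38 were positive. Spef1 was at 9.67, 5.72, 5.86 and 8.67 TPM in the 4 PTE+ mice, while the PTE- levels ran from 8.15 to 16.08 TPM around a median of 12.8. All 4 PTE+ mice lay below the PTE- median and 2 below every PTE- mouse, with a log2 fold change of -0.65 ± 0.24 (SE), an unadjusted limma p of 0.0175 (adjusted 0.987) and an exact permutation p of 0.00899. Spef1 was at 13.76 TPM, above the PTE- median, in PTE- mouse 9_14, where 29 of the 46 genes were listed at 0. Of its 2747 exonic bases it shares 256 with Gm14232, 92 with Cdc25b and 20 with Cenpb, so its values are uncertain.

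Pifo, which localizes to the base of cilia, was at 15.18, 9.69, 13.35 and 15.04 TPM in the 4 PTE+ mice, while the PTE- levels ran from 11.83 to 35.17 TPM around a median of 25.6. All 4 PTE+ mice lay below the PTE- median and 1 was lower than any PTE- mouse. On the log2 scale it fell by 0.73 ± 0.29 (SE), with an exact permutation p of 0.0310. The highest PTE- level of Pifo was that of mouse 9_14. Without that mouse 6 of 37 genes passed as lower (0.774% of all genes did) and the median was -0.42. Without PTE+ mouse 9_17 none passed (0.113% of all genes did as lower) and the median was 0.08, and without PTE+ mouse 9_18 only Pifo did (0.136%). A pseudocount of 0.1 also gave a median of 0.08, and centring each library on its median, which took the all-gene median to 0.02, gave -0.24. The member score difference was -0.59 among mice whose names begin with 8 (1 PTE+, 4 PTE-) and 0.13 among those that begin with 9 (3 PTE+, 6 PTE-). Of the 70 other motile cilia genes 1, Iqca, passed as lower, and their median was -0.13. None of the 7 choroid plexus, 6 ependymal, 10 astrocyte or 7 oligodendrocyte genes passed, with medians of -0.35, -0.19, 0.15 and 0.53.

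Contralaterally no gene of the 37 tested passed in either comparison. For injured against sham mice 4.14% of all genes passed, most of them as lower, and the median log2 fold change of the 37 was -0.14 against -0.08 over all genes. For PTE+ against PTE- mice 2.82% of all genes passed, and the medians were -0.08 and 0.05. Of all genes, 592 (4.45%) and 387 (2.91%) had an unadjusted p under 0.05 in these comparisons by limma, and none passed the adjustment. Both shares are smaller than that threshold allows when no gene differs. None of the 37 genes had an unadjusted p under 0.05 in either comparison. Foxj1 was at 7.34, 3.17, 15.48, 7.26 and 6.65 TPM in sham mice 8_15, 8_16, 9_10, 9_11 and 9_9, between 2.46 and 25.1 TPM in PTE- mice with a median of 4.66, and at 2.69, 2.07, 26.97 and 8.67 TPM in PTE+ mice. The sham values lay within the range of both injured groups.

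The contralateral values differed with the first digit of the mouse name. Among mice that begin with 8 (6 injured, 2 sham) the member score was 3.08 in injured and 3.70 in sham mice, and 15 of 36 genes passed as lower (4.51% of all genes did). Among mice that begin with 9 (7 injured, 3 sham) the scores were 4.06 and 3.77, 35 of 39 genes were higher, and none passed. The directions were thus opposite, and the difference between them was not tested. Without sham mouse 9_10 the pooled median was 0.14. For PTE+ against PTE- mice the score difference was -0.49 among names that begin with 8 (2 PTE+, 4 PTE-) and 0.33 among those that begin with 9 (2 PTE+, 5 PTE-), and the pooled median was 0.28 without PTE+ mouse 8_17, with 36 of 37 genes higher, and -0.54 without 9_17, with 2 of 37 higher.

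The third comparison used the 17 mice with both hemispheres, and took ipsilateral minus contralateral within each mouse, so every mouse served as its own block. In 12 injured mice 37 of 38 genes were higher ipsilaterally (median log2 difference 0.35, against 0.00 over all genes), but 1 passed, where 2.86% of all genes passed as higher and 5.17% in either direction. This was Tekt1, a filament protein of the doublets, with 0.50 ± 0.22 (SE) and 8 of 12 mice higher (exact permutation p 0.0781). Rsph9 was higher in 11 of 12 mice (exact permutation p 0.00293), by 0.24 ± 0.07 (SE), a change below the fold threshold, with an adjusted p of 0.223 by limma. The share of the group that passed was near that of all genes. Without PTE+ mouse 9_17 11 genes passed as higher, where 4.43% of all genes did, and without PTE+ mouse 8_10 none did, where 2.88% of all genes did. In 5 sham mice 37 of 38 were lower (median -0.48, against -0.10 over all genes), and Armc4, Spag6l, Cfap126, Mns1 and Cfap65 passed as lower, where 6.39% of all genes did and 6.81% in either direction. Armc4 differed by 0.05, -1.28, -1.69, -1.43 and -0.41 in sham mice 8_15, 8_16, 9_10, 9_11 and 9_9, on the log2 scale, so 4 of 5 were lower ipsilaterally. With 5 mice the exact permutation p cannot go below 0.0625, and that of Armc4 was 0.125. The count was 14 without sham mouse 8_15 (4.16% of all genes passed as lower) and 14 without 9_9 (7.5%), but 1 without 9_10 (2.90%) and 1 without 9_11 (6.30%). The median was -0.72, -0.61, -0.25 and -0.24 in the same order. Under median centring and under quantile normalization only Armc4 passed.

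The member score difference was 0.24, -0.27, -1.23, -1.10 and 0.14 in sham mice 8_15, 8_16, 9_10, 9_11 and 9_9. In the 9 PTE- mice it had a lowest value of -1.37, a median of 0.83 and a highest of 1.74, and in the PTE+ mice 8_10, 9_17 and 9_18 it was 0.53, -1.49 and -0.09. Differences of both signs occurred in every group. Among injured mice whose names begin with 8 the mean was 0.99 (5 mice), and among those that begin with 9 it was -0.16 (7 mice).

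Between injured and sham mice the hemisphere difference was higher for Armc4 (1.08 ± 0.42, SE), Wdr63 (1.17 ± 0.55, SE) and Cfap65 (1.12 ± 0.43, SE), 3 of 38 genes, where 6.13% of all genes passed as higher and 6.73% in either direction. The median over the 38 was 0.83, against 0.09 over all genes. In Armc4 the ipsilateral hemisphere was higher in 7 of 12 injured mice and in 1 of 5 sham mice (exact permutation p 0.0367), and in Cfap65 in 9 of 12 and 1 of 5 (exact permutation p 0.0305). In Wdr63 it was higher in 8 of 12 and 1 of 5 (exact permutation p 0.0800). The adjusted p of all 3 was between 0.672 and 0.698 by limma. The share of the group that passed was near that of all genes. The count was 15 without PTE+ mouse 9_17 (7.62% of all genes passed as higher), 9 without sham mouse 8_15 (4.61%), 5 without sham mouse 9_9 (6.74%) and 0 without sham mouse 9_10 (3.36%). With PTE+ mouse 8_10 left out it was 2 (5.90%), as it was with sham mouse 9_11 left out (8.65%). None of the 3 genes was tested under the filter of the study, and no other gene of the group passed there.

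Between PTE+ and PTE- mice all 38 genes had a lower hemisphere difference in PTE+ (median -0.93, against -0.01 over all genes), and Foxj1 (-1.45 ± 0.64, SE) and Ttc29 (-1.34 ± 0.44, SE) passed, where 2.39% of all genes did as lower and 3.28% in either direction. Ttc29, a gene of ciliary and flagellar beating, was higher contralaterally in all 3 PTE+ mice and higher ipsilaterally in 8 of 9 PTE- mice (exact permutation p 0.0182, the smallest possible being 0.00455). Foxj1 was higher ipsilaterally in 1 of 3 PTE+ and 7 of 9 PTE- mice (exact permutation p 0.0818). In the PTE+ mice 8_10, 9_17 and 9_18 the difference was 0.42, -2.19 and -0.06 for Foxj1 and -0.08, -1.50 and -1.04 for Ttc29, on the log2 scale. The adjusted p of both was 0.993 by limma. Without PTE+ mouse 9_17 no gene passed (0.618% of all genes did as lower), 34 of 38 were lower and the median was -0.34. Without 8_10 8 passed (5.66% of all genes) and the median was -1.38, and without 9_18 3 passed (2.11%) and the median was -1.13.

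**Figure D4:**
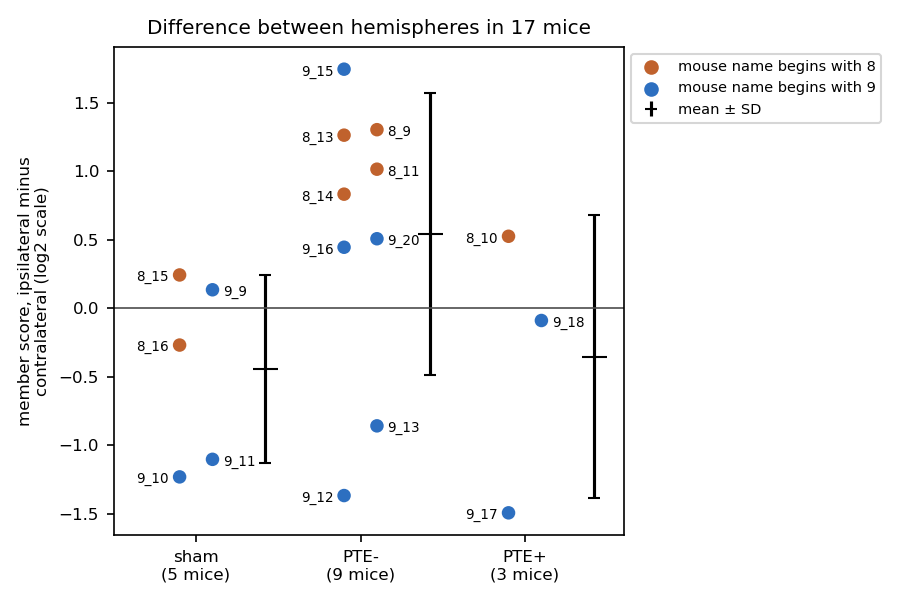
Member score, ipsilateral minus contralateral, in each of the 17 mice with both hemispheres (points, labelled by mouse), with the mean ± SD of each outcome and colour by the first digit of the mouse name. The values run from -1.49 to 1.74, and all 4 PTE- mice whose names begin with 8 lie between 0.83 and 1.30.

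Across libraries the genes moved together. Over all 703 pairs of the 38 genes the median Pearson correlation was 0.74 in the 19 ipsilateral and 0.82 in the 18 contralateral libraries. With each group centred on its own mean the medians were 0.75 and 0.83, and without the 2 libraries of highest score they were 0.72 and 0.78. The values share libraries and the scaling to TPM, and are a description. Measured against the mean of the other genes, 25 of the 38 had a correlation above 0.8 in both hemispheres, among them Mns1 (0.98 and 0.95), Spag6l (0.98 and 0.98) and Drc7 (0.96 and 0.97). Foxj1 had 0.69 and 0.73.

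Under 0.5 in either hemisphere were 4 genes. Dnaic1 had 0.27 and -0.01, and Rsph9 0.64 and -0.09, falling to 0.29 ipsilaterally without mouse 9_14. Pifo (0.45) and Dnah9 (-0.38) were low only ipsilaterally, and without mouse 9_14 they had 0.89 and 0.60.

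The genes outside the group that followed its score most closely were named by the mean correlation over both tables. They were Fam216b (0.982), Cfap161 (0.980), 1700001C02Rik (0.977), Fam166b (0.974), 2410004P03Rik (0.971), 1700016K19Rik (0.970), Ppp1r32 (0.967), Dmkn (0.966), ENSMUSG00000118506 (0.965) and Tctex1d4 (0.964), of which Fam216b, Cfap161 and Tctex1d4 are on the list of other motile cilia genes. By list, the median correlation was 0.79 ipsilaterally and 0.87 contralaterally for 69 other motile cilia genes. It was 0.67 and 0.78 for 6 ependymal genes outside the axoneme, 0.705 and 0.67 for 7 multiciliogenesis regulators, and 0.565 and 0.446 for 5 choroid plexus genes. The 6 microglia genes had 0.44 and 0.268, and the 3 neuroblast and dividing progenitor genes 0.405 and 0.29. Meningeal and fibroblast genes had 0.314 and 0.363, neuron genes 0.359 and -0.037, oligodendrocyte genes 0.314 and -0.176, and endothelial genes 0.127 and 0.212. The medians were 0.10 and 0.37 for 32 primary cilium genes, and -0.12 and -0.01 for 10 astrocyte genes. All 13133 genes had medians of 0.18 and 0.11.

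Scores of the hemispheres of a mouse were also set side by side, as a description. Over the 17 mice the scores of the hemispheres had a Pearson correlation of -0.21 and a Spearman correlation of -0.40, Foxj1 -0.16 and -0.20, and Tppp3 -0.38 and -0.42. Dnaic1, which did not follow the group, had 0.62 and 0.69, and Gfap had 0.01 and -0.02.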

How the data were processed

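Astrocytes were taken from the cortex of each hemisphere, and the cDNA kit (SMART-Seq v4) does not mark strand. The authors trimmed the paired 100 bp reads with Trim Galore 0.6.4, quantified them with RSEM 1.2.28 and Bowtie2 2.4.1 on mm10, and deposited TPM for each gene in 1 table per hemisphere. The annotation release is not given in the sources used here. TPM keep no depth, so the depth is unknown and no counting interval is given. The authors' own tests used DESeq2 1.36.0 on counts, which were not used here.

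Groups came from the labels. Gene identifiers were matched to symbols for 21856 of 21975 rows. Genes with a mean above 1 TPM in a table (for hemisphere differences, over both) were tested on log2(TPM + 1) with limma 3.58.1 in R 4.3.3, with an intensity trend, and fold changes are on that scale, which understates changes of low genes. Called genes had an unadjusted p under 0.05 and at least 1.2-fold, as in the study, whose further filter of a mean above 5 TPM in a group was an alternative here. Benjamini-Hochberg adjustment ran over all genes tested. Hemispheres were compared with the mouse as block, since both libraries come from 1 animal. Exact permutation tests were two-sided (Python 3.11.15, scipy 1.17.1). The scripts were tested on simulated data. Genes named singly were those called in any comparison and the 10 highest in mean TPM, with the 10 other genes of highest correlation to the member score. Members and lists were chosen with earlier results of these data known. Alternatives changed the pseudocount, filter, scaling, library weights, block, mouse-name covariate and the mice left out (each sham and PTE+ mouse in turn, and of the PTE- mice only 9_14). Positions are from GENCODE vM21 and promoters from RefSeq.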

Additional observations from a re-analysis of the deposited data

Results flagged for a closer look

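A library was singled out where its gap to the nearest other of its group was large for the whole range by Dixon's test, applied to groups of 4 to 10. This happened in 20 of 138 group values examined. A rate of about 1 in 20 by chance would hold for independent values. These were 22 named genes and the member score in the same libraries, which vary together, so the count cannot be set against that rate. In 10 of the 20 flagged values the lowest library was the ipsilateral one of PTE- mouse 9_14. Its member score was 1.529, and its levels were 27.18 TPM for Rsph9, 0.51 TPM for Ccdc153 and 0.0 TPM for Spag6l, Tekt1, Mns1, 1110017D15Rik, Cfap65, Odf3b and Meig1.

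The ipsilateral library of sham mouse 9_11 was lowest in 8, with 14.49 TPM for Rsph1, 1.06 TPM for Spag6l, 0.85 TPM for Cfap126, 4.02 TPM for 1110017D15Rik, 8.42 TPM for Dynlrb2, 1.12 TPM for Pifo, 0.26 TPM for Ttc29 and 5.72 TPM for Odf3b. The contralateral library of sham mouse 9_10 was highest in 2, with 16.41 TPM for Rsph4a and 8.02 TPM for Cfap65.

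The hemisphere difference itself differed between groups for 5 genes, by the interaction term of limma at an unadjusted p under 0.05 and 1.2-fold, and not after adjustment. These were 3 of 38 where 6.73% of all genes passed, and 2 of 38 where 3.28% did, shares near those of all genes. Between injured and sham mice it was higher by 1.0776 for Armc4, 1.1723 for Wdr63 and 1.1167 for Cfap65 on the log2 scale. Between PTE+ and PTE- mice it was -1.4542 for Foxj1 and -1.3403 for Ttc29, and neither passed without PTE+ mouse 9_17.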

How the results depend on the processing

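TPM keep no depth, so the share of the spread due to counting is unknown. Of the PTE- mice only 9_14 was left out, so ranges with 1 mouse left out cover sham and PTE+ mice. Over 2233 alternatives for single genes, 183 had the other sign, none of them for a gene called with all mice. In 81 a call was lost, in 84 one was gained, and 68 uncalled ones moved by 1 SE or more. Only genes called with all mice can lose a call, so the 81 cannot be set against all 2233. For ipsilateral injury Foxj1 lost it in 1 of 20 alternatives, Tmem212 in 6 of 20 and Armc4 in 9 of 19. Between hemispheres in sham mice Mns1 lost it in 8 of 11 and Armc4 in 0 of 10. The number of genes of the group that passed kept within 1.5 times in 70 of 103 alternatives. These 70 include the contralateral alternatives where no gene passed, as with all mice, so they overstate how steady the calls were. The cause of the other changes was not tested. For ipsilateral injured against sham mice it was 8, with 5 under the filter of the study, 28 without PTE- mouse 9_14, 4 among names that begin with 9 (chosen after seeing the data), and 2 to 11 with 1 of 9 sham or PTE+ mice left out. For ipsilateral PTE+ against PTE- mice it was 2, with 6 under array weights, 6 without mouse 9_14, and 0 to 2 with 1 of 4 PTE+ mice left out. Contralaterally it was 0, with 15 for injured against sham among names that begin with 8 (chosen after seeing the data), and 0 with 1 sham or PTE+ mouse left out.

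The pairing of hemispheres by mouse was the block of the hemisphere comparisons. In injured mice 1 gene passed, with 0 without a TPM filter, 2 without the block, and 0 to 11 with 1 of 3 PTE+ mice left out. In sham mice 5 passed, with 2 without a filter, 3 under the filter of the study, 1 under median centring, 1 under quantile normalization, 1 without the block, and 1 to 14 with 1 of 5 mice left out. For injured against sham mice 3 passed, and 3 without the block, where Wdr63 was no longer among them. The count was 6 at a pseudocount of 0.1, 0 under the filter of the study, and 0 to 15 with 1 of 8 sham or PTE+ mice left out. For PTE+ against PTE- mice 2 passed, with 1 without a filter, 1 under the filter of the study, and 0 to 8 with 1 of 3 PTE+ mice left out.

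Over all genes, ipsilateral injury called 238, with 379 without a filter, 406 under quantile normalization, 1005 under array weights, 597 without mouse 9_14 and 198 to 500 with 1 sham or PTE+ mouse left out. Ipsilateral PTE called 75, with 171, 158, 550 and 254 in the same order and 30 to 154 with 1 PTE+ mouse left out. Contralateral injury called 551, with 1089 among names that begin with 8 and 320 to 1072, and contralateral PTE 375, with 932 under array weights and 287 to 607. The hemisphere comparisons called 687 in injured mice (406 without the block), 905 in sham mice (178 without the block, 539 under quantile normalization, 422 to 1077 with 1 mouse left out), 895 for injured against sham (306, and 519 to 1338) and 436 for PTE (191 to 1036). The share of calls that were higher moved with scaling, from 65.3% to 28.4% under median centring for ipsilateral PTE, from 11.8% to 70.0% for contralateral injury, from 72.0% to 39.8% for contralateral PTE, and for hemispheres from 6.19% to 63.9% in sham mice, 91.1% to 39.4% for injured against sham and 27.3% to 63.3% for PTE.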
